A study of Mus musculus with 12 samples.

Results

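The 46 genes described here encode subunits of the main histone-modifying and chromatin-remodelling complexes of mouse embryonic stem cells (ESCs). They are 11 genes of Polycomb repressive complex 2 (PRC2), 16 of Polycomb repressive complex 1 (PRC1), 7 of the Trithorax-type MLL/COMPASS complexes with the histone H3 lysine 27 demethylase Kdm6b, 4 of histone H3 lysine 9 methylation, 5 of the NuRD and CoREST deacetylase complexes and 3 of the BAF remodelling complex. They were taken from a list of names, with no threshold on their values. All 46 were found, in 78 transcript entries, among 23496 genes of the deposited table, and all 46 passed the filter on low values. RNA-seq had been made from 3 groups of 4 libraries. The first group was ESCs grown in 2i whose label gives a knockout of Tfcp2l1, a transcription factor of the naive pluripotency network. The second was wild-type ESCs in 2i, a serum-free base with N2 and B27 supplements, LIF at 1000 units/mL, the GSK3 inhibitor CHIR99021 at 3 µM and the MEK inhibitor PD0325901 at 1 µM. The third was wild-type ESCs in DMEM with 15% fetal bovine serum (FBS) and the same LIF concentration, so LIF and 2-mercaptoethanol were common to all 3 groups. The labels name no cell line, clone, passage or feeder layer, and do not say whether libraries of a group are separate cultures. The p-values therefore cover only the variation among these libraries, which may be technical.

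PRC2 methylates lysine 27 of histone H3 and PRC1 attaches ubiquitin to a lysine of histone H2A, and both marks keep developmental genes silent in ESCs. MLL/COMPASS complexes methylate lysine 4 of histone H3 at active and poised promoters, so that many developmental promoters in ESCs carry both kinds of mark. Methylation of lysine 9 of histone H3 silences retroelements and heterochromatin, NuRD couples deacetylation to nucleosome remodelling, and BAF opens chromatin.

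Levels are FPKM values (fragments per kilobase, a length- and library-scaled abundance), which the authors deposited per transcript and which were summed per gene. FPKM are per length, so levels can be set side by side between genes, but the read depth is unknown. Differences are in log2(FPKM + 1), so changes of low genes are understated, and are given ± their standard error (SE) with a p from limma (two-sided), adjusted by Benjamini-Hochberg over all 12329 genes tested. A gene is called at an adjusted p under 0.05. Group levels are means ± SD (n = 4). In RNA from whole cultures, fewer cells of a type and less RNA per cell cannot be told apart. Both comparisons use the same 4 wild-type libraries in 2i, so their differences are not independent.

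Tfcp2l1 itself had 76.1, 72.01, 82.95 and 84.7 FPKM in the libraries labelled knockout, 133, 143, 112 and 139 FPKM in wild-type cells in 2i and 25.8, 37.1, 30.7 and 31.5 FPKM in FBS. The knockout level was 59.8% of that of wild type in 2i and the groups did not overlap (exact two-sided permutation test, p = 0.0286, the smallest that 4 against 4 libraries allow). A whole-gene value does not show which exons were removed, so it does not by itself check the label. Transcript sums were 347772 to 358340 FPKM per library. The 10 markers of undifferentiated ESCs listed for this purpose summed to 3980 to 4154 FPKM in knockout cells, 4244 to 4951 FPKM in wild-type cells in 2i and 3276 to 4282 FPKM in FBS, and each averaged at least 1 FPKM in every group. The 20 fibroblast markers summed to 726.9 to 1075 FPKM in knockout cells, 548.2 to 681.7 FPKM in wild-type cells in 2i and 368.2 to 460.8 FPKM in FBS. Of these, 16 of 20 were higher and 1 lower in knockout cells, 11 were higher and 6 lower in wild-type cells in 2i than in FBS, and only Pdgfra in wild-type cells in 2i and Dcn and Lum in FBS averaged under 1 FPKM. Of the ESC markers 1 was higher and 5 were lower in knockout cells, with Nanog at -0.57 among the lower ones, and 6 were higher and 1 lower in 2i than in FBS. The 10 trophoblast markers summed to 62.88 to 73.15 FPKM in knockout cells, 38.96 to 58.46 FPKM in wild-type cells in 2i and 244.1 to 309.8 FPKM in FBS. Of 8 tested, 4 were higher and 1 lower in knockout cells, and 7 were lower in 2i than in FBS. The 8 neural markers summed to 26.07 to 33.01, 9.929 to 25.51 and 36.51 to 60.32 FPKM in the same order, and all 3 tested were higher in knockout cells and lower in 2i than in FBS. The 14 endoderm markers summed to 347.1 to 485.3, 406.1 to 513.7 and 171.4 to 212.3 FPKM, and 8, 9 and 8 of them were under 1 FPKM, in the same order. Of 6 tested, 3 were higher and 1 lower in knockout cells, and 1 was higher and 3 lower in 2i. Over all genes tested 24.0% were higher and 21.4% lower in knockout cells, and 37.1% were higher and 35.3% lower in 2i than in FBS. The part of the trophoblast, neural and endoderm markers in the differences below was not tested. Genes of chromosome 6, which holds Ezh2, Aebp2, Pcgf1, Rybp and Chd4, had a median offset that differed by 0.376 log2 units between the highest and lowest library, more than the at most 0.132 of any other chromosome.

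Most of these regulators were expressed well above the typical gene. Their median level was 39.8 FPKM in knockout cells, 37.0 FPKM in wild-type cells in 2i and 39.61 FPKM in FBS, against 9.66, 9.70 and 9.33 FPKM for all genes tested in the same groups. At least 5 FPKM was reached by 42 of 46 genes in knockout cells, 40 in wild-type cells in 2i and 41 in FBS. Trim28, the corepressor that brings H3K9 methylation to retroelements, stood highest in every group, at 431 ± 15.4 FPKM in knockout cells, 379 ± 37.1 FPKM in wild-type cells in 2i and 523 ± 72.3 FPKM in FBS. Phf19, a PRC2 targeting subunit, was lowest in both 2i groups, and the PRC1 chromodomain gene Cbx8 was lowest in FBS at 0.806 ± 0.0836 FPKM.

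**Figure D1:**
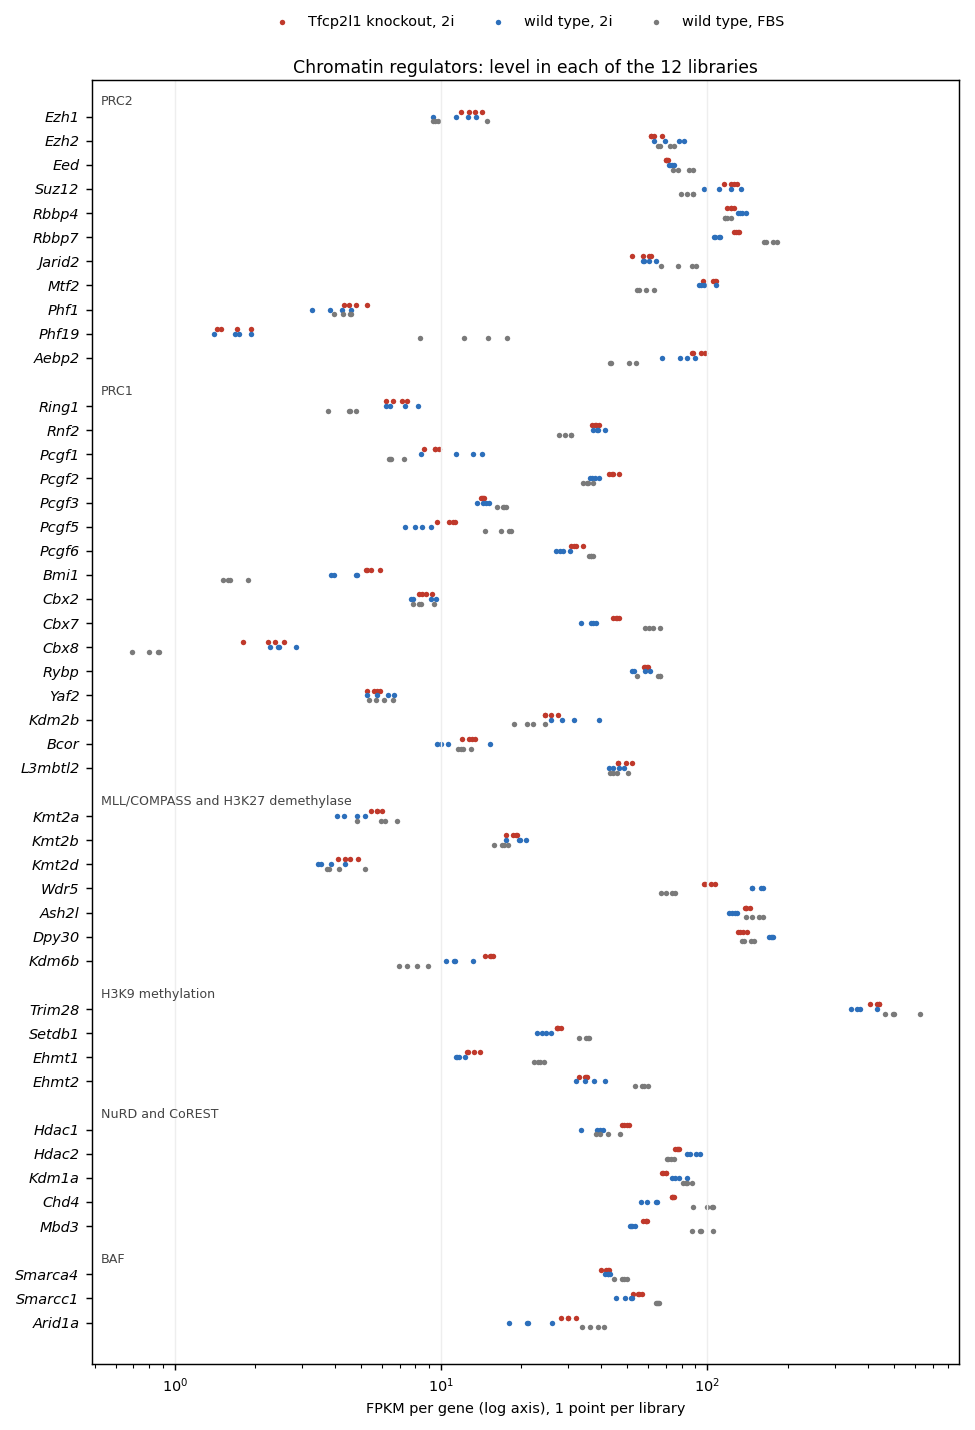
Level of each of the 46 genes in each of the 12 libraries (log axis, FPKM per gene), with a point per library and colours for the Tfcp2l1 knockout in 2i, wild type in 2i and wild type in FBS. The 3 groups lie close together for most genes, while Phf19, Cbx8 and Bmi1 show a wide gap between the 2i groups and FBS.

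Promoter windows, 250 bases before to 50 after an annotated start, were taken from RefSeq on GRCm38.p6, where 38 of the 46 genes matched, with 54 windows. They were rich in CpG: the median was 27.5 CG dinucleotides per window, against 7 over all 32851 windows. Several letter patterns were searched on both strands. CCAG, any 6 bases and CCAG again, a tandem of the kind bound by CP2-family factors such as Tfcp2l1, was in the windows of Pcgf5 and Rnf2, 2 of 54 windows (3.70%) against 3.44% of all windows. TTTCCCGC or TTTGGCGC, E2F-type sites, were in those of Arid1a, Ezh2, Phf19 and Suz12, 4 of 54 windows (7.41%) against 1.56% of all. CTTTGAT, a TCF/LEF-type site, was in that of Kmt2d and in 3.73% of all windows, and TTCNNNGAA, a STAT-type site, in those of Bcor, Kmt2d and Pcgf6 and in 8.30% of all. A match is a run of letters, not a measured site. Each E2F-type pattern holds a CG, and the shares were not matched for composition. The median G+C was 65.8% in the windows of these genes and 52.7% in all.

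The windows of Phf19 and Wdr5 are printed because these genes had the largest differences between 2i and FBS, and Wdr5 also that between knockout and wild type, and both windows of Kdm2b because its entries with different starts are described below. Capitals mark CG dinucleotides, and each sequence runs 5′ to 3′ on the gene's strand. The window of Phf19 (chr2:34913927-34914226, minus strand) holds 38 CG dinucleotides at 74.3% G+C and the E2F-type match, read on this strand as the reverse complement of TTTCCCGC. That of Wdr5 (chr2:27514897-27515196, plus strand) holds 22, that of the long Kdm2b entry (chr5:122989050-122989349, minus strand) 28, and that of the short Kdm2b entry (chr5:122900301-122900600, minus strand) 49.
Phf19: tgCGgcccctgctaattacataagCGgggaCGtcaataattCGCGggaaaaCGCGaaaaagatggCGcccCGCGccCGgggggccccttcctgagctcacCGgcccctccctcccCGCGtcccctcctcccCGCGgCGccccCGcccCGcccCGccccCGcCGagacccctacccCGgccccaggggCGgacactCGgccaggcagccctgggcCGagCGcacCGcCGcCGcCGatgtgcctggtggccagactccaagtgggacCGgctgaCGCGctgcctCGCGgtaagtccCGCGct
Wdr5: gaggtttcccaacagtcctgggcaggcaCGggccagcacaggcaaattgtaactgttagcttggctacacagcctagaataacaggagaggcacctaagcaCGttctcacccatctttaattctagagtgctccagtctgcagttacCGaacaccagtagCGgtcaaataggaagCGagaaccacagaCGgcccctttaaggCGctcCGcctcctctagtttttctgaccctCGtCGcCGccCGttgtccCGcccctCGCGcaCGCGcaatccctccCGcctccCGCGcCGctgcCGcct
Kdm2b long: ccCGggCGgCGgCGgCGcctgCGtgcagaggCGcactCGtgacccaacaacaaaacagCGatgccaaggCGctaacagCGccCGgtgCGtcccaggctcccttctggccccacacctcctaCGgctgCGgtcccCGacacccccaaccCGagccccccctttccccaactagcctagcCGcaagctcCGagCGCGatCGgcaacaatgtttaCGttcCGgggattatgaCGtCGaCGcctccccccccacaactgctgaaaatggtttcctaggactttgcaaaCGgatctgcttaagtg
Kdm2b short: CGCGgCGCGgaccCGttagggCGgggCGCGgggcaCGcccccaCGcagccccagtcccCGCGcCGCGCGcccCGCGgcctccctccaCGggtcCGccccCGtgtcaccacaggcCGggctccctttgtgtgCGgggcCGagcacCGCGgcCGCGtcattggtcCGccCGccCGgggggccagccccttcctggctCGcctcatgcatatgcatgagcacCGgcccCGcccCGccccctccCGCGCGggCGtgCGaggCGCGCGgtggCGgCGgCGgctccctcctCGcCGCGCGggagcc

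The first comparison asks which transcripts depend on Tfcp2l1 in 2i. In knockout cells the chromatin regulators moved by small amounts. Of the 46 genes, 16 were higher, 6 were lower and 24 were not called in knockout cells, so 47.8% were called, against 45.3% of all genes tested. The higher and lower shares over all genes were 24.0% and 21.4%. The 22 genes whose groups of 4 did not overlap made up 47.8%, against 44.1% of all genes. The median difference was 0.092 log2 units for the 46 genes and 0.012 for all genes, and the median size regardless of sign was 0.168 and 0.173. Wdr5 alone differed by at least 0.5 log2 units, which is 2.17% of these genes against 13.7% of all.

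The fibroblast marker level moved with this comparison. Its mean log2 level was 4.05 to 4.68 in knockout libraries and 3.42 to 3.91 in wild-type libraries in 2i. These ranges did not overlap, so the level and the group label are hard to separate in a model. With that level in the model, 4 of the 22 calls remained (Wdr5, Dpy30, Cbx7 and Rbbp7), 18 had adjusted p of 0.0788 to 0.791, all 22 kept their sign and Kdm2b was gained as lower. The median size of the 22 differences was 0.203 with the level in the model and 0.240 without it, the median SE was 0.091 and 0.048, and 14.8% of all genes were called. The differences of Bmi1, Kdm6b, Pcgf5 and Smarcc1 shrank by more than 1.5 times in that model.

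The second comparison sets 2i against FBS in wild-type cells, and here the differences were larger. In 2i, 15 were higher, 21 were lower and 10 were not called, so 78.3% were called, against 72.4% of all genes tested. The higher and lower shares over all genes were 37.1% and 35.3%. Groups did not overlap for 31 genes (67.4%), against 62.5% of all genes. The genes called higher and those without overlap include Cbx8, which passed the filter only through the 2i libraries. The median difference was -0.11 log2 units for the 46 genes and 0.014 for all genes, and the median size was 0.386 and 0.345. At least 0.5 log2 units was reached by 18 genes (39.1%), against 35.7% of all, and at least 1 unit by Phf19, Wdr5 and Bmi1 (6.52%, against 12.7% of all). With the fibroblast marker level in the model 31 of 36 calls remained and all 36 kept their sign. Eed, Kdm1a, Kdm2b, Kmt2a and Rybp were lost, with adjusted p of 0.0722 to 0.223.

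**Figure D2:**
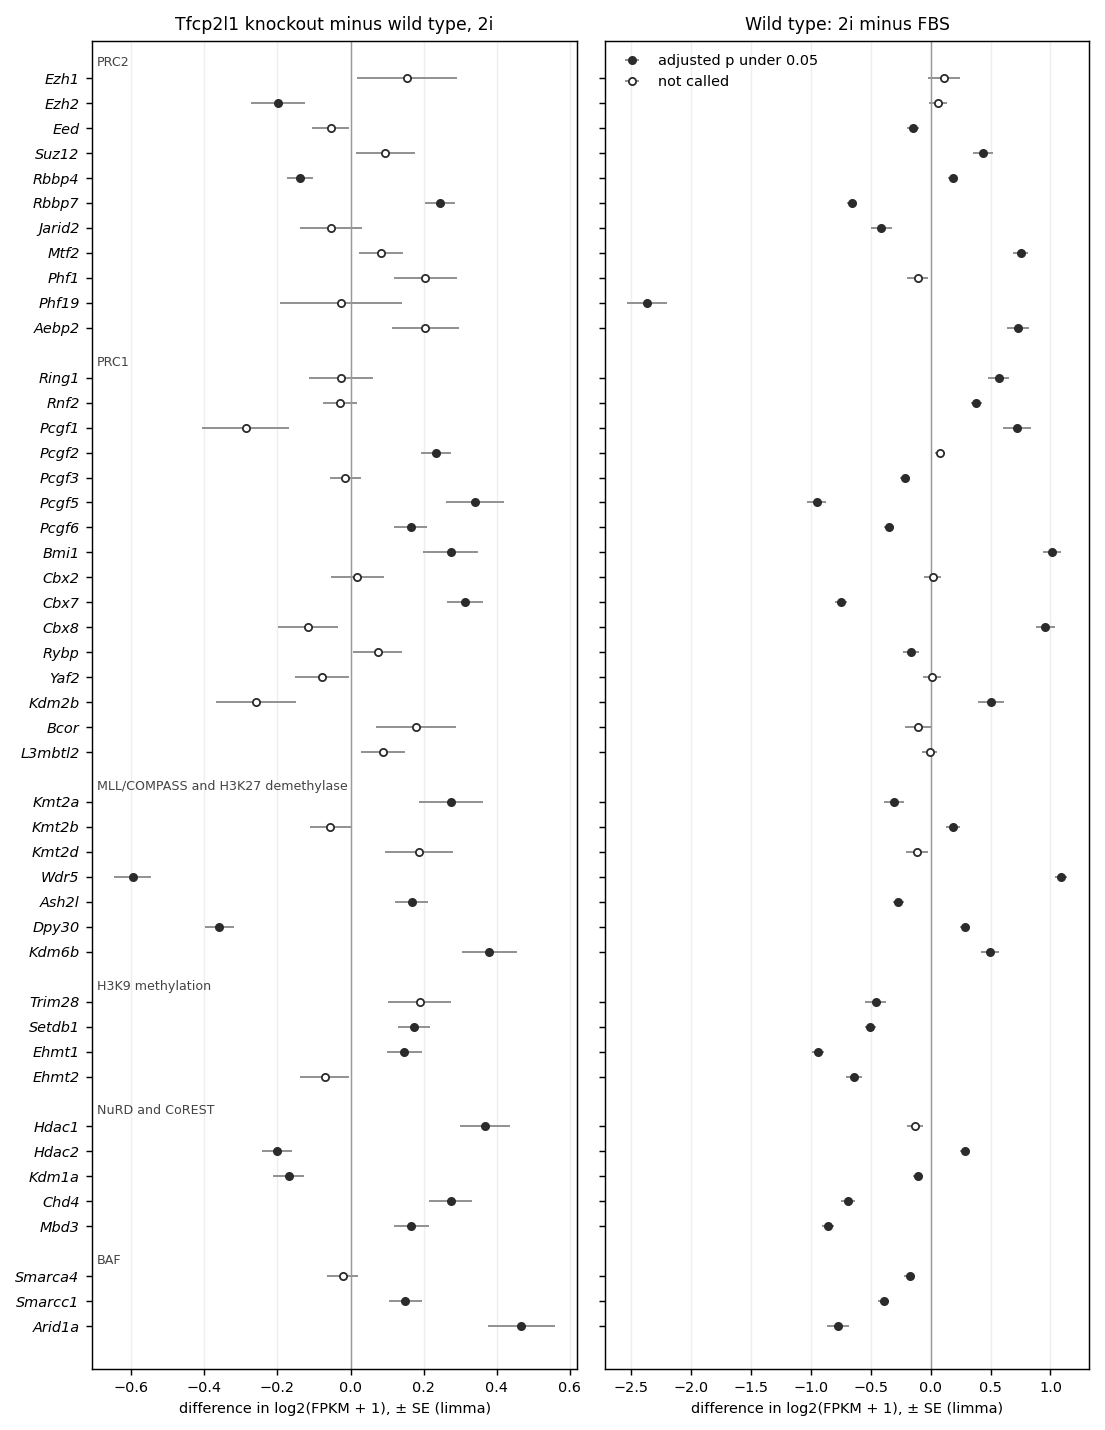
Difference of each gene in log2(FPKM + 1) ± SE from limma, with knockout minus wild type in 2i on the left and, in wild type, 2i minus FBS on the right, with filled points for adjusted p under 0.05. Left, Wdr5 lies lowest and Arid1a highest, and all genes lie within 0.6 units of 0. Right, the axis is wider, Phf19 lies near -2.37, Wdr5 and Bmi1 lie above 1, and the H3K9 and BAF genes all lie below 0.

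Of the 11 PRC2 genes 1 was higher and 2 were lower in knockout cells, so 27.3% were called, against 45.3% of all genes. In the PRC2 core, the methyltransferase Ezh2 fell slightly in knockout cells. Its paralogue Ezh1, the scaffold Suz12 and the H3K27me3 reader Eed were not called there. Ezh2 had 61.7, 67.3, 62.8 and 61.5 FPKM in knockout cells, 69.5, 77.9, 63.3 and 81.6 FPKM in wild-type cells in 2i and 74.9, 72.2, 66.5 and 65.4 FPKM in FBS. The knockout and wild-type ranges in 2i overlapped (-0.20 ± 0.073, adjusted p = 0.0431), and the call ended without knockout replicate 1, 3 or 4, wild-type 2i replicate 1, 2 or 4 or FBS replicate 2 (adjusted p = 0.0511 to 0.128). The call also ended with no filter, with quantile or TPM scaling, with only the 8 libraries compared and with eBayes without trend (adjusted p = 0.0548 to 0.0649). With the chromosome 6 offset removed the difference was -0.058 (adjusted p = 0.195), and the model with the fibroblast marker level gave -0.26 (adjusted p = 0.229). Ezh1 had 13.4, 14.2, 11.9 and 12.7 FPKM in knockout cells, 12.6, 13.5, 9.29 and 11.4 FPKM in wild-type cells in 2i and 9.71, 9.48, 14.8 and 9.32 FPKM in FBS. Neither comparison called Ezh1 (0.16 ± 0.14, adjusted p = 0.376 for the knockout and 0.11 ± 0.14, adjusted p = 0.471 for 2i against FBS), and its FBS replicate 3 stood apart. Without that library Ezh1 was higher in 2i (0.26, adjusted p = 0.035).

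Suz12 had 122, 115, 129 and 125 FPKM in knockout cells, 110.2, 97.04, 123 and 133 FPKM in wild-type cells in 2i and 79.3, 83.5, 87.9 and 88.3 FPKM in FBS. All 4 wild-type libraries in 2i lay above all 4 in FBS (0.44 ± 0.081, adjusted p = 0.000314), while the knockout and wild-type ranges in 2i overlapped (0.10 ± 0.081, adjusted p = 0.362). Eed had 70.3, 70.1, 69.8 and 71.4 FPKM in knockout cells, 71.8, 73.7, 74.6 and 72.4 FPKM in wild-type cells in 2i and 77.4, 85.5, 74.3 and 88.3 FPKM in FBS. Eed was slightly lower in 2i than in FBS, with overlapping ranges (-0.15 ± 0.050, adjusted p = 0.0162), a call lost without FBS replicate 2 (adjusted p = 0.0518). Its knockout values, all below those of wild type in 2i, were not called (-0.05 ± 0.050, adjusted p = 0.4).

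The histone-binding paralogues Rbbp4 and Rbbp7, shared by PRC2 and NuRD, moved in opposite directions in both comparisons. Rbbp7 had 131, 132, 126 and 128 FPKM in knockout cells, 111, 112, 106 and 107 FPKM in wild-type cells in 2i and 176, 166, 182 and 163 FPKM in FBS. Rbbp7 was higher in knockout cells (0.25 ± 0.041, adjusted p = 0.000434) and lower in 2i than in FBS (-0.66 ± 0.041, adjusted p = 2.02e-08), with no overlap in either comparison. Rbbp4 averaged 122 ± 2.88 FPKM in knockout cells, 134 ± 3.64 FPKM in wild-type cells in 2i and 118 ± 2.83 FPKM in FBS. It fell in knockout cells (-0.14 ± 0.035, adjusted p = 0.00622) and was higher in 2i than in FBS (0.18 ± 0.035, adjusted p = 0.000361).

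Of the 5 accessory subunits among the 46 that steer PRC2 to DNA, 2 were higher and 2 lower in 2i than in FBS. Between media 72.4% of all genes were called. None of the 5 was called in knockout cells, where 45.3% of all genes were. Epop, a PRC2 subunit outside the 46 that is described below, was called higher in knockout cells. Phf19 had 1.72, 1.93, 1.49 and 1.44 FPKM in knockout cells, 1.68, 1.75, 1.403 and 1.93 FPKM in wild-type cells in 2i and 12.2, 17.8, 8.34 and 14.96 FPKM in FBS. Phf19, one of the Polycomb-like proteins that bind CpG-rich DNA, was thus close to the detection filter in both 2i groups and well above it in every FBS library (-2.37 ± 0.17, adjusted p = 6.2e-08 for 2i against FBS), where its 2i mean was 0.127 of the FBS mean. The knockout and wild-type ranges overlapped (-0.03 ± 0.17, adjusted p = 0.917). Phf19 lies on chromosome 2, from 34749275 to 34769496 on mm9.

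Mtf2 had 107, 105, 108 and 96.1 FPKM in knockout cells, 94.9, 92.8, 96.8 and 108 FPKM in wild-type cells in 2i and 54.3, 63.2, 55.4 and 58.6 FPKM in FBS. Mtf2, the Polycomb-like paralogue of Phf19, went the opposite way, with every 2i library above every FBS library (0.75 ± 0.060, adjusted p = 1.79e-07). Aebp2 had 88.4, 87.2, 97.7 and 94.9 FPKM in knockout cells, 67.6, 78.6, 89.8 and 84.2 FPKM in wild-type cells in 2i and 50.9, 43.5, 42.9 and 54.1 FPKM in FBS. Aebp2, a zinc-finger cofactor of the Jarid2-containing form, was also higher in 2i (0.73 ± 0.091, adjusted p = 1.04e-05), and its knockout difference of 0.21 ± 0.091, adjusted p = 0.0831 was not called. Without the chromosome 6 offset that knockout difference was 0.35 and called (adjusted p = 0.0235), as it was without wild-type 2i replicate 3 (adjusted p = 0.0317) and with quantile scaling (0.25, adjusted p = 0.0333). In the model with the fibroblast marker level it was -0.01 (adjusted p = 0.966). Jarid2, which recruits and stimulates PRC2, averaged 57.8 ± 4.19 FPKM in knockout cells, 59.95 ± 3.09 FPKM in wild-type cells in 2i and 80.5 ± 10.6 FPKM in FBS and was lower in 2i (-0.41 ± 0.085, adjusted p = 0.000716). Phf1, the other Polycomb-like gene, averaged 4.73 ± 0.416 FPKM in knockout cells, 3.99 ± 0.571 FPKM in wild-type cells in 2i and 4.35 ± 0.2903 FPKM in FBS and was called in neither comparison. It was called higher in knockout cells without wild-type 2i replicate 2 (adjusted p = 0.0285), with TPM scaling (0.26, adjusted p = 0.0482) and with the replicate number as a block (adjusted p = 0.0451).

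Among 4 other tested PRC2 genes, 1 was higher and 1 lower in knockout cells, and 2 were higher in 2i, including Skida1, which passed the filter only through the 2i libraries. Of these 4 genes 50.0% were called in each comparison, against 45.3% and 72.4% of all genes. Epop, a PRC2 subunit abundant in ESCs, averaged 142 ± 6.75 FPKM in knockout cells, 88.1 ± 11.4 FPKM in wild-type cells in 2i and 101 ± 20.2 FPKM in FBS and rose in knockout cells (0.69 ± 0.12, adjusted p = 0.000773). Skida1 averaged 1.28 ± 0.446 FPKM in knockout cells, 2.695 ± 0.294 FPKM in wild-type cells in 2i and 0.1598 ± 0.0786 FPKM in FBS, lower in knockout cells (-0.72 ± 0.12). Its FBS values of 0.111 to 0.277 FPKM all lay under the filter, and its knockout values went down to 0.8725 FPKM. It would not have passed without wild type in 2i, where it was highest, so its differences in both comparisons are a description only.

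PRC1 has the ubiquitin ligases Ring1 and Rnf2 at its centre, and both were higher in 2i than in FBS with no change called in knockout cells. Rnf2 had 39.3, 38.2, 37.8 and 36.8 FPKM in knockout cells, 38.7, 38.3, 41.3 and 37.1 FPKM in wild-type cells in 2i and 30.7, 29.1, 30.7 and 27.8 FPKM in FBS. Ring1 had 7.12, 7.46, 6.23 and 6.61 FPKM in knockout cells, 7.31, 8.17, 6.41 and 6.19 FPKM in wild-type cells in 2i and 4.78, 4.53, 4.49 and 3.76 FPKM in FBS. Every wild-type 2i library was above every FBS library for both genes, by 0.38 ± 0.046, adjusted p = 7.45e-06 for Rnf2 and by 0.57 ± 0.088, adjusted p = 7.1e-05 for Ring1. The knockout ranges overlapped those of wild type in 2i (-0.03 ± 0.046, adjusted p = 0.628 and -0.03 ± 0.088, adjusted p = 0.832).

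Of all 16 PRC1 genes 5 were higher and 0 lower in knockout cells, so 31.2% were called, against 45.3% of all genes. The 6 PCGF genes define the variant PRC1 assemblies. Of these 6, 4 (Pcgf2, Pcgf5, Pcgf6 and Bmi1) were higher in knockout cells, against 24.0% of all genes. None of these 4 was called with the fibroblast marker level in the model (adjusted p = 0.112 to 0.468). Their differences were 0.162 to 0.208 in that model and 0.165 to 0.34 without the level. The SE were 0.076 to 0.143 and 0.041 to 0.079. Pcgf2 had 44.3, 46.4, 42.8 and 43.9 FPKM in knockout cells, 37.01, 36.2, 39.1 and 37.8 FPKM in wild-type cells in 2i and 37.1, 34.1, 35.7 and 35.4 FPKM in FBS. Bmi1 had 5.28, 5.46, 5.88 and 5.22 FPKM in knockout cells, 3.96, 3.85, 4.82 and 4.79 FPKM in wild-type cells in 2i and 1.61, 1.52, 1.59 and 1.88 FPKM in FBS. For both, partners of the canonical CBX-containing complexes, all knockout values lay above all wild-type values in 2i (0.23 ± 0.041, adjusted p = 0.000622 for Pcgf2 and 0.27 ± 0.076, adjusted p = 0.0108 for Bmi1). Bmi1 also had no overlap between media, at 2.64-fold more FPKM in 2i than in FBS (1.01 ± 0.076, adjusted p = 1.07e-07), whereas Pcgf2 was not called there (0.08 ± 0.041, adjusted p = 0.11).

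Pcgf5 had 10.7, 11.3, 11.1 and 9.68 FPKM in knockout cells, 7.34, 8.01, 8.47 and 9.16 FPKM in wild-type cells in 2i and 18.3, 16.7, 17.96 and 14.6 FPKM in FBS. Pcgf5, of a variant complex without CBX proteins, rose in knockout cells (0.34 ± 0.079, adjusted p = 0.00405) and was lower in 2i than in FBS (-0.95 ± 0.079, adjusted p = 2.72e-07), with no overlap in either comparison. Pcgf6, of the germline-gene-repressing variant, averaged 32.1 ± 1.39 FPKM in knockout cells, 28.6 ± 1.46 FPKM in wild-type cells in 2i and 36.6 ± 0.556 FPKM in FBS, with the same directions (0.17 ± 0.045, adjusted p = 0.0093 and -0.35 ± 0.045, adjusted p = 1.39e-05). Pcgf3 averaged 14.3 ± 0.164 FPKM in knockout cells, 14.5 ± 0.618 FPKM in wild-type cells in 2i and 16.98 ± 0.5496 FPKM in FBS and was lower in 2i than in FBS (-0.22 ± 0.043, adjusted p = 0.000535). Pcgf1 had 8.602, 9.78, 9.496 and 9.49 FPKM in knockout cells, 13.2, 14.2, 8.39 and 11.4 FPKM in wild-type cells in 2i and 6.39, 6.49, 7.28 and 6.43 FPKM in FBS. Pcgf1, the partner of Kdm2b and Bcor, was higher in 2i (0.72 ± 0.12, adjusted p = 0.000121), and its knockout difference of -0.29 ± 0.12, adjusted p = 0.0669 had overlapping ranges. Without wild-type 2i replicate 3 that difference was -0.43 and called (adjusted p = 0.000712). It was -0.15 (adjusted p = 0.279) without the chromosome 6 offset and -0.14 (adjusted p = 0.726) with the fibroblast marker level in the model, neither called.

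Of the chromodomain subunits, which read H3K27 methylation, Cbx7 and Cbx8 differed in opposite directions between media. Cbx7 had 46.7, 45.5, 44.2 and 45.6 FPKM in knockout cells, 37.3, 38.2, 33.6 and 36.7 FPKM in wild-type cells in 2i and 62.4, 60.4, 66.4 and 58.2 FPKM in FBS. Cbx7, the main such subunit of undifferentiated ESCs, was higher in knockout cells (0.31 ± 0.049, adjusted p = 0.00031) and lower in 2i than in FBS (-0.75 ± 0.049, adjusted p = 3.61e-08), and in neither comparison did groups overlap. Cbx8 had 1.797, 2.38, 2.56 and 2.25 FPKM in knockout cells, 2.28, 2.47, 2.44 and 2.85 FPKM in wild-type cells in 2i and 0.871, 0.803, 0.689 and 0.863 FPKM in FBS. Cbx8, which is linked to differentiation, had 3.11-fold more FPKM in 2i than in FBS, a difference of 0.96 ± 0.082. All its FBS values lay under the filter of 1 FPKM, so it was tested only through the 2i libraries, and its call between media is a description. Its knockout range overlapped that of wild type in 2i (-0.12 ± 0.082, adjusted p = 0.267). Cbx2 averaged 8.69 ± 0.399 FPKM in knockout cells, 8.59 ± 0.933 FPKM in wild-type cells in 2i and 8.47 ± 0.656 FPKM in FBS and was called in neither comparison.

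The remaining PRC1 genes moved little. Rybp, which stimulates the ligase in variant complexes, averaged 58.9 ± 1.02 FPKM in knockout cells, 56.04 ± 4.24 FPKM in wild-type cells in 2i and 63.02 ± 5.83 FPKM in FBS, slightly lower in 2i than in FBS with overlapping ranges (-0.17 ± 0.067, adjusted p = 0.0413). That call was lost in 9 of 12 fits that left out a library (adjusted p = 0.052 to 0.112). Its paralogue Yaf2, the corepressor Bcor and the MBT-domain gene L3mbtl2 averaged 6.01 ± 0.626, 11.4 ± 2.63 and 45.5 ± 2.73 FPKM in wild-type cells in 2i and were called in neither comparison. Without wild-type 2i replicate 3 Bcor was called in both, at 0.32 (adjusted p = 0.000721) in knockout cells and -0.24 (adjusted p = 0.00196) for 2i against FBS. In the model with the fibroblast marker level Bcor differed by 0.03 in knockout cells (adjusted p = 0.949). With the chromosome 6 offset removed, Rybp was called higher in knockout cells (0.21, adjusted p = 0.00213), and its difference between media was -0.29 (adjusted p = 6.77e-05).

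Kdm2b, whose CxxC zinc finger brings a variant PRC1 to unmethylated CpG islands, was higher in 2i, and its transcript entries differed between media. Kdm2b had 24.6, 24.7, 25.8 and 27.6 FPKM in knockout cells, 28.4, 25.9, 39.1 and 31.6 FPKM in wild-type cells in 2i and 24.5, 20.96, 22.2 and 18.7 FPKM in FBS. All wild-type 2i values were above all FBS values (0.50 ± 0.11, adjusted p = 0.00107), and knockout values overlapped those of wild type in 2i (-0.26 ± 0.11, adjusted p = 0.0686). Without wild-type 2i replicate 2 the knockout difference was -0.34 and called (adjusted p = 0.0214). With only the highest entry per symbol, the short one described below, it was -0.335 and also called (adjusted p = 0.0333). The model with the fibroblast marker level gave -0.62 for the knockout (adjusted p = 0.0243, called lower) and 0.23 between media (adjusted p = 0.166, not called). The table holds a long entry (NM_001003953, chromosome 5, 123320685 to 123439101 on mm9) and a short one (NM_013910, 123320685 to 123350359) with the same end and with starts 88742 bases apart. The short form lacks the demethylase domain and keeps the CxxC finger. The windows before these starts are the printed ones of 28 and 49 CG dinucleotides.

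The long entry had 5.30, 5.30, 3.33 and 4.24 FPKM in knockout cells, 4.30, 3.75, 4.07 and 3.99 FPKM in wild-type cells in 2i and 13.0, 9.91, 11.9 and 7.32 FPKM in FBS. The short entry had 19.3, 19.4, 22.4 and 23.3 FPKM in knockout cells, 24.1, 22.1, 35.0 and 27.6 FPKM in wild-type cells in 2i and 11.5, 11.1, 10.3 and 11.4 FPKM in FBS. Wild-type cells in 2i were thus below FBS for the long entry and above it for the short entry in every library. The long entry made up 17.8 ± 4.36% of Kdm2b in knockout cells, 13.2 ± 2.11% in wild-type cells in 2i and 48.2 ± 6.72% in FBS, with overlap between knockout and wild type in 2i only. This split was chosen after its values were seen and has no test, and the sources used here do not give how reads were divided between overlapping entries.

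**Figure D3:**
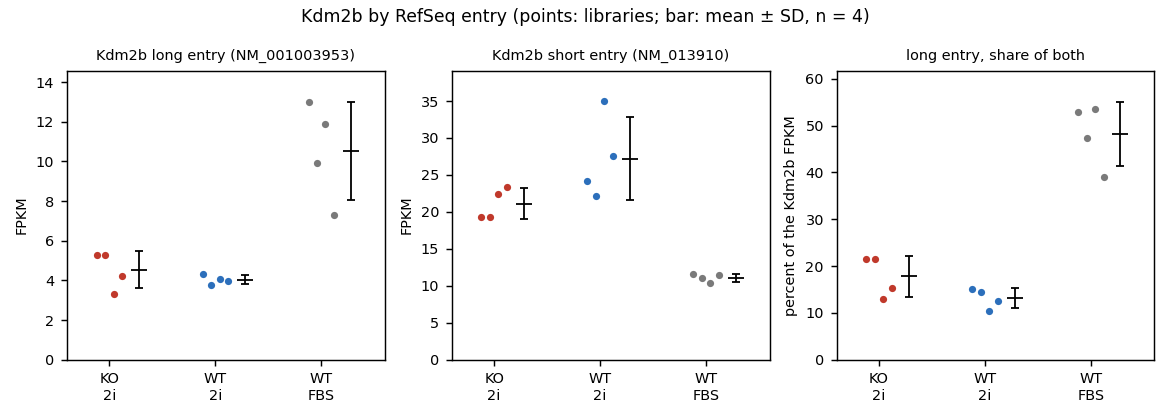
FPKM of the long and the short Kdm2b entry and the share of the long entry in percent, with a point per library and the mean ± SD (n = 4) beside each group. The long entry lies at 7.32 to 13.0 FPKM in FBS, above all 8 libraries in 2i, and the short entry at 10.3 to 11.5 FPKM, below all 8.

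Of 20 other tested PRC1 genes, 7 were higher and 1 lower in knockout cells, and 4 were higher and 13 lower in 2i. With the fibroblast marker level in the model 3 were called higher and 1 lower in knockout cells. Without that level 40.0% were called in knockout cells and 85.0% between media, against 45.3% and 72.4% of all genes. Phc2, a polymerising Polyhomeotic subunit, averaged 18.1 ± 1.53 FPKM in knockout cells, 8.47 ± 0.294 FPKM in wild-type cells in 2i and 19.4 ± 1.26 FPKM in FBS, higher in knockout cells (1.01 ± 0.063, adjusted p = 2.18e-07) and lower in 2i (-1.11 ± 0.063, adjusted p = 9.48e-09). Its paralogue Phc1 averaged 196 ± 23.9 FPKM in knockout cells and 123 ± 22.4 FPKM in wild-type cells in 2i (0.68 ± 0.12, adjusted p = 0.00067). Sfmbt2, an imprinted MBT-domain gene, averaged 3.35 ± 0.407 FPKM in knockout cells, 1.46 ± 0.337 FPKM in wild-type cells in 2i and 23.1 ± 2.03 FPKM in FBS, with differences of 0.83 ± 0.11, adjusted p = 6.65e-05 and -3.30 ± 0.11, adjusted p = 9.77e-11. Among 7 tested genes of H2A deubiquitination 2 were higher in knockout cells, with Asxl1, cofactor of the deubiquitinase Bap1, at 29.2 ± 1.75 FPKM in knockout cells and 23.6 ± 2.25 FPKM in wild-type cells in 2i (0.30 ± 0.070, adjusted p = 0.00383). Neither of those 2 was called higher with the fibroblast marker level in the model. They made up 28.6% of the 7, while 45.3% of all genes were called. In 2i 1 of the 7 was higher and 6 were lower, while 72.4% of all genes were called. Foxk1, a lower one, averaged 3.39 ± 0.0998 FPKM in 2i and 5.098 ± 0.218 FPKM in FBS (-0.48 ± 0.050, adjusted p = 2.5e-06).

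Of the 7 genes of the MLL/COMPASS group 3 were higher and 2 lower in knockout cells, so 71.4% were called, against 45.3% of all genes. In this group, Wdr5 had the largest knockout difference of all 46 genes. This WD-repeat subunit binds the histone H3 tail and joins the methyltransferase to its cofactors. Wdr5 had 97.5, 96.9, 103 and 107 FPKM in knockout cells, 158, 161, 147 and 147 FPKM in wild-type cells in 2i and 73.6, 69.7, 75.4 and 67.0 FPKM in FBS. The 3 groups did not overlap: wild type in 2i was highest, the knockout lay between, and FBS was lowest. The knockout level was 65.9% of that of wild type in 2i (-0.60 ± 0.050, adjusted p = 2.55e-06), and 2i was 2.15-fold above FBS (1.09 ± 0.050, adjusted p = 1.64e-09). The fall was -0.65 (adjusted p = 0.00126) with the fibroblast marker level in the model. Wdr5 lies on chromosome 2, from 27370667 to 27392055 on mm9.

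Dpy30 had 131, 133, 136 and 141 FPKM in knockout cells, 173, 176, 170.1 and 174 FPKM in wild-type cells in 2i and 135, 146, 138 and 149.7 FPKM in FBS. Dpy30, another shared core subunit, also fell in knockout cells without overlap (-0.36 ± 0.040, adjusted p = 2.25e-05) and was higher in 2i than in FBS (0.29 ± 0.040, adjusted p = 2.91e-05). The core subunit Ash2l averaged 141 ± 2.65 FPKM in knockout cells, 125 ± 3.72 FPKM in wild-type cells in 2i and 151 ± 9.56 FPKM in FBS, with the reverse directions (0.17 ± 0.045, adjusted p = 0.00898 and -0.27 ± 0.045, adjusted p = 0.000133). Kdm6b had 15.2, 14.6, 15.5 and 15.7 FPKM in knockout cells, 10.4, 11.3, 11.2 and 13.1 FPKM in wild-type cells in 2i and 8.11, 7.48, 8.94 and 6.95 FPKM in FBS. Kdm6b, which removes H3K27 methylation, was higher in knockout cells (0.38 ± 0.076, adjusted p = 0.0016) and higher in 2i than in FBS (0.50 ± 0.076, adjusted p = 6.7e-05), with no overlap. With the fibroblast marker level in the model its knockout difference was 0.16 (adjusted p = 0.428).

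The methyltransferases themselves were low or moderate in level. Kmt2a had 6.003, 5.76, 5.48 and 5.75 FPKM in knockout cells, 4.82, 4.33, 5.16 and 4.06 FPKM in wild-type cells in 2i and 6.15, 6.81, 5.95 and 4.84 FPKM in FBS. Kmt2a was higher in knockout cells without overlap (0.27 ± 0.087, adjusted p = 0.0224), but not called without knockout replicate 1 (adjusted p = 0.0589) or wild-type 2i replicate 2 or 4 (0.056 and 0.0679), and it was lower in 2i than in FBS with overlap (-0.31 ± 0.087, adjusted p = 0.00686). Kmt2b had 19.2, 18.6, 17.5 and 19.2 FPKM in knockout cells, 20.8, 19.8, 19.6 and 17.6 FPKM in wild-type cells in 2i and 17.8, 17.2, 16.96 and 15.8 FPKM in FBS. Kmt2b, which acts at bivalent promoters, was slightly higher in 2i with overlap (0.19 ± 0.056, adjusted p = 0.00936) and not called in knockout cells (-0.06 ± 0.056, adjusted p = 0.452). Kmt2d had 4.88, 4.09, 4.54 and 4.37 FPKM in knockout cells, 3.87, 3.53, 4.38 and 3.46 FPKM in wild-type cells in 2i and 4.15, 5.18, 3.73 and 3.79 FPKM in FBS. Kmt2d, the enhancer-type enzyme, was called in neither comparison (0.19 ± 0.092, adjusted p = 0.114 and -0.11 ± 0.092, adjusted p = 0.291), though without wild-type 2i replicate 3 it was called higher in knockout cells (adjusted p = 0.048).

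Of 17 other tested genes of these complexes and of H3K4 and H3K27 demethylation, 7 were higher and 2 lower in knockout cells, and 7 were higher and 6 lower in 2i. With the fibroblast marker level in the model 1 was higher and 1 lower in knockout cells. Without that level 52.9% were called in knockout cells and 76.5% between media, against 45.3% and 72.4% of all genes. Psip1, a chromatin tether of MLL proteins, averaged 52.8 ± 2.09 FPKM in knockout cells, 40.9 ± 0.977 FPKM in wild-type cells in 2i and 72.3 ± 3.94 FPKM in FBS (0.36 ± 0.046, adjusted p = 5.97e-05 and -0.81 ± 0.046, adjusted p = 9.48e-09). Ncoa6, a coactivator subunit of the enhancer-type complexes, fell to 9.78 ± 0.230 FPKM in knockout cells, against 13.6 ± 0.320 FPKM in wild-type cells in 2i (-0.43 ± 0.066, adjusted p = 0.000253). Rbbp5, a core subunit with Wdr5, Ash2l and Dpy30, averaged 27.5 ± 1.01 FPKM in 2i and 19.3 ± 0.345 FPKM in FBS (0.49 ± 0.038, adjusted p = 1.58e-07).

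**Figure D4:**
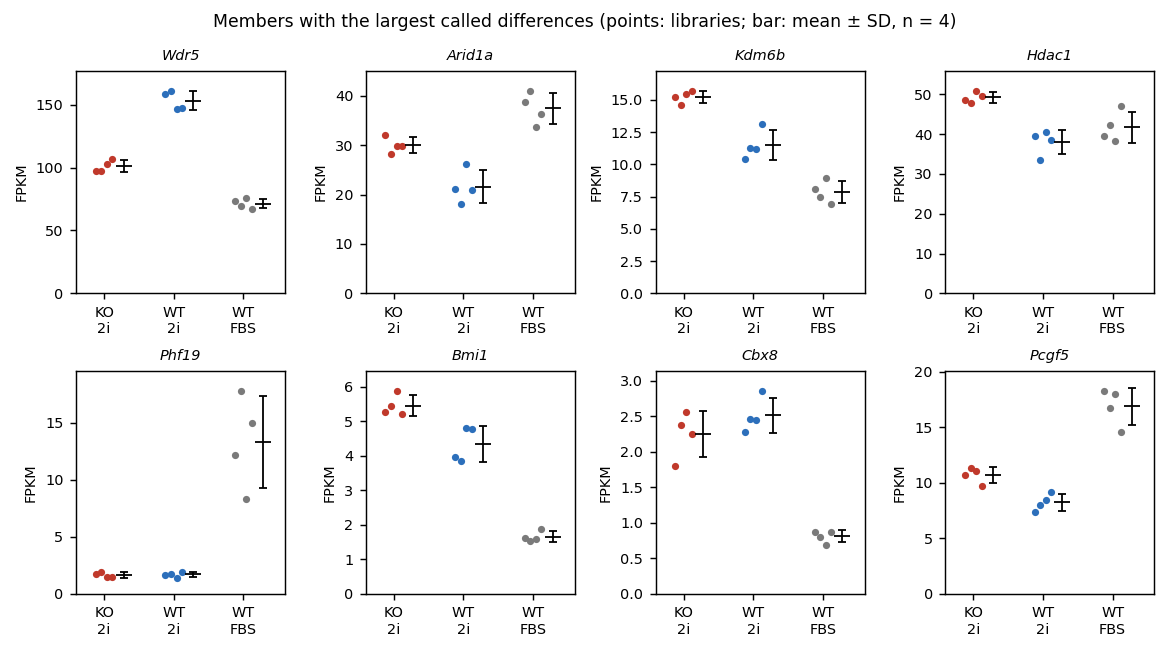
FPKM of the 4 genes with the largest called knockout differences (top) and of 4 of the 5 with the largest called differences between media (bottom, the other being Wdr5 in the top row), with a point per library and the mean ± SD (n = 4) beside each group. Wdr5 is lower in the knockout than in wild type in 2i, while Arid1a, Kdm6b and Hdac1 are higher. Phf19 and Pcgf5 are highest in FBS, and Bmi1 and Cbx8 lowest there. All FBS values of Cbx8 lie under the filter of 1 FPKM, so its difference between media is a description.

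All 4 H3K9 methylation genes were lower in 2i than in FBS, with a median difference of -0.57 and no overlap for any of them. Over all genes tested, 35.3% were called lower and 62.5% did not overlap. Ehmt1 had 12.5, 13.98, 12.6 and 13.3 FPKM in knockout cells, 12.3, 11.7, 11.5 and 11.4 FPKM in wild-type cells in 2i and 23.6, 24.4, 23.2 and 22.3 FPKM in FBS. Ehmt2 had 34.9, 34.8, 32.8 and 35.4 FPKM in knockout cells, 34.8, 41.4, 32.0 and 37.4 FPKM in wild-type cells in 2i and 56.6, 59.8, 53.4 and 58.01 FPKM in FBS. These partner enzymes, which dimethylate H3K9, were lower in every 2i library than in any FBS library (-0.94 ± 0.048, adjusted p = 4e-09 for Ehmt1 and -0.64 ± 0.067, adjusted p = 2.19e-06 for Ehmt2). Knockout Ehmt1 was slightly higher than in wild type in 2i (0.15 ± 0.048, adjusted p = 0.025), a call lost without knockout replicate 2 or 4 or wild-type 2i replicate 4 (adjusted p = 0.0828, 0.0589 and 0.0665), and Ehmt2 was not called (-0.07 ± 0.067, adjusted p = 0.419).

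Setdb1 had 27.3, 27.3, 27.4 and 28.2 FPKM in knockout cells, 24.7, 22.9, 25.8 and 23.97 FPKM in wild-type cells in 2i and 34.9, 35.96, 33.04 and 35.6 FPKM in FBS. Setdb1, the trimethylating enzyme, was lower in 2i (-0.50 ± 0.044, adjusted p = 4.08e-07) and a little higher in knockout cells (0.17 ± 0.044, adjusted p = 0.00648), without overlap in either comparison. Trim28 had 442, 409, 441 and 433 FPKM in knockout cells, 373, 347, 432 and 364 FPKM in wild-type cells in 2i and 498, 501, 463 and 628 FPKM in FBS. Trim28 was lower in 2i (-0.46 ± 0.087, adjusted p = 0.000406), and its knockout range overlapped that of wild type in 2i through replicate 3 (0.19 ± 0.087, adjusted p = 0.0962). Without that library, or without FBS replicate 4, Trim28 was called higher in knockout cells (adjusted p = 0.0252 and 0.0285). So it was with quantile scaling (0.264, adjusted p = 0.0137) and with only the 8 libraries compared (adjusted p = 0.0411). Of 22 other tested genes of H3K9 methylation, HP1 proteins and silencing, 7 were higher and 2 lower in knockout cells, and 5 were higher and 9 lower in 2i. Under the same fibroblast marker covariate 1 of them was called in knockout cells, as higher. The shares called without it were 40.9% in knockout cells and 63.6% between media, against 45.3% and 72.4% of all genes. Zfp57, which guards imprints, averaged 168 ± 14.3 FPKM in knockout cells, 210.2 ± 12.8 FPKM in wild-type cells in 2i and 103 ± 7.30 FPKM in FBS (-0.33 ± 0.069, adjusted p = 0.00227 and 1.02 ± 0.069, adjusted p = 4.38e-08). The H3K9 demethylase Kdm3a averaged 63.5 ± 5.93 FPKM in 2i and 27.97 ± 2.13 FPKM in FBS (1.15 ± 0.066, adjusted p = 9.99e-09), and its counterpart Kdm4c averaged 14.8 ± 0.941 FPKM in 2i and 32.5 ± 5.05 FPKM in FBS (-1.07 ± 0.085, adjusted p = 1.67e-07).

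All 5 NuRD and CoREST genes were called in knockout cells, 3 higher and 2 lower, against 45.3% of all genes. None of the 5 was called with the fibroblast marker level in the model (adjusted p = 0.0788 to 0.209). In that model the differences were 0.369 for Hdac1, -0.186 for Hdac2, -0.224 for Kdm1a, 0.227 for Chd4 and 0.182 for Mbd3. Their SE were 0.077 to 0.13 with the level and 0.041 to 0.068 without it. The deacetylase paralogues Hdac1 and Hdac2 went in opposite directions. Hdac1 had 48.5, 47.8, 50.9 and 49.7 FPKM in knockout cells, 39.5, 33.6, 40.5 and 38.6 FPKM in wild-type cells in 2i and 39.6, 42.2, 38.2 and 47.0 FPKM in FBS. Hdac1 was higher in every knockout library than in any wild-type library in 2i (0.37 ± 0.068, adjusted p = 0.000969) and was not called between media (-0.13 ± 0.068, adjusted p = 0.104), except as lower in 2i without FBS replicate 3 (adjusted p = 0.0432). Hdac2 averaged 76.8 ± 0.998 FPKM in knockout cells, 88.5 ± 4.57 FPKM in wild-type cells in 2i and 72.3 ± 2.01 FPKM in FBS, lower in knockout cells (-0.20 ± 0.041, adjusted p = 0.00168) and higher in 2i than in FBS (0.29 ± 0.041, adjusted p = 3.22e-05). Chd4 had 74.8, 74.2, 73.4 and 73.5 FPKM in knockout cells, 59.2, 56.4, 64.1 and 64.8 FPKM in wild-type cells in 2i and 99.98, 105, 88.2 and 104 FPKM in FBS. Chd4, the NuRD remodelling ATPase, was higher in knockout cells (0.27 ± 0.058, adjusted p = 0.00232) and lower in 2i than in FBS (-0.69 ± 0.058, adjusted p = 3.1e-07), without overlap.

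Mbd3 had 57.5, 58.99, 59.3 and 58.6 FPKM in knockout cells, 52.1, 51.3, 51.8 and 53.3 FPKM in wild-type cells in 2i and 93.9, 94.2, 87.4 and 105 FPKM in FBS. Mbd3, the scaffold that joins the deacetylase and remodelling modules of NuRD, had the same directions (0.17 ± 0.048, adjusted p = 0.0139 and -0.85 ± 0.048, adjusted p = 9.33e-09) and no overlap. Kdm1a had 68.2, 70.2, 69.9 and 67.8 FPKM in knockout cells, 75.7, 73.6, 83.9 and 78.1 FPKM in wild-type cells in 2i and 83.5, 81.2, 87.4 and 83.1 FPKM in FBS. Kdm1a, the CoREST demethylase of H3K4, fell in knockout cells (-0.17 ± 0.043, adjusted p = 0.00662) and was slightly lower in 2i than in FBS, with overlapping ranges (-0.11 ± 0.043, adjusted p = 0.0378). The difference between media was not called in 7 of 12 fits that left out a library (adjusted p = 0.05 to 0.113). Of 17 other tested genes of these complexes, 10 were higher and 1 lower in knockout cells, with a median difference of 0.204, and 4 were higher and 7 lower in 2i. Including the fibroblast marker level, 2 of them were called in knockout cells, both higher. The share called without it was 64.7% in each comparison, against 45.3% and 72.4% of all genes. Chd3, the paralogue of Chd4, averaged 10.2 ± 0.616 FPKM in knockout cells, 3.902 ± 0.664 FPKM in wild-type cells in 2i and 3.36 ± 0.374 FPKM in FBS (1.21 ± 0.093, adjusted p = 1.22e-06 for the knockout). Cdk2ap1, a small NuRD subunit, averaged 42.98 ± 1.91 FPKM in 2i and 101 ± 8.78 FPKM in FBS (-1.21 ± 0.060, adjusted p = 3.11e-09).

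All 3 BAF genes were lower in 2i than in FBS, with a median difference of -0.39, and 2 of 3 were higher in knockout cells. Over all genes tested, 35.3% were lower in 2i and 24.0% were higher in knockout cells. Arid1a had 32.03, 28.2, 29.9 and 29.9 FPKM in knockout cells, 21.2, 18.1, 26.2 and 20.97 FPKM in wild-type cells in 2i and 38.8, 41.0, 33.7 and 36.4 FPKM in FBS. Arid1a, the DNA-binding subunit that defines the canonical BAF form, had the largest rise among the 46 genes in knockout cells (0.47 ± 0.092, adjusted p = 0.00147) and was lower in 2i than in FBS (-0.78 ± 0.092, adjusted p = 7.06e-06), without overlap. Under the same fibroblast marker covariate the rise was 0.41 and not called (adjusted p = 0.139). Smarca4 had 42.3, 41.4, 39.8 and 42.8 FPKM in knockout cells, 42.3, 42.2, 41.2 and 42.96 FPKM in wild-type cells in 2i and 50.1, 44.6, 47.8 and 48.8 FPKM in FBS. Smarca4, the ATPase, was not called in knockout cells (-0.02 ± 0.042, adjusted p = 0.71) and was slightly lower in 2i (-0.18 ± 0.042, adjusted p = 0.00196). The scaffold Smarcc1 averaged 54.9 ± 1.69 FPKM in knockout cells, 49.5 ± 3.15 FPKM in wild-type cells in 2i and 65.1 ± 0.8401 FPKM in FBS (0.15 ± 0.046, adjusted p = 0.0179 and -0.39 ± 0.046, adjusted p = 5.87e-06), and its knockout call was lost without knockout replicate 4 (adjusted p = 0.0531).

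Of 22 other tested BAF and PBAF genes, 6 were higher and 3 lower in knockout cells, and 7 were higher and 8 lower in 2i. Including the fibroblast marker level, 3 were higher and 3 lower in knockout cells. The shares called without it were 40.9% in knockout cells and 68.2% between media, against 45.3% and 72.4% of all genes. Smarcd3, a variant subunit, fell to 0.906 ± 0.170 FPKM in knockout cells, against 6.04 ± 1.22 FPKM in wild-type cells in 2i (-1.87 ± 0.11, adjusted p = 1.81e-07), and FBS had 1.88 ± 0.182 FPKM. The PBAF subunit Arid2 averaged 10.7 ± 0.411 FPKM in knockout cells, 7.17 ± 0.278 FPKM in wild-type cells in 2i and 17.7 ± 1.25 FPKM in FBS (0.52 ± 0.056, adjusted p = 1.69e-05 and -1.19 ± 0.056, adjusted p = 1.84e-09). The ATPase Smarca2, paralogue of Smarca4, averaged 3.64 ± 0.496 FPKM in 2i and 1.04 ± 0.214 FPKM in FBS (1.19 ± 0.099, adjusted p = 2.66e-07).

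Shares among paralogues, which do not depend on the scaling of a library, are given with no test. Shares that hold Ezh2, Aebp2, Pcgf1 or Rybp still carry the chromosome 6 offset. Hdac1 made up 39.0 ± 0.858% of Hdac1 plus Hdac2 FPKM in knockout cells, 30.0 ± 1.47% in wild-type cells in 2i and 36.6 ± 2.49% in FBS. Rbbp4 made up 48.6 ± 1.02% of both Rbbp genes in knockout cells, 55.3 ± 0.380% in wild-type cells in 2i and 40.8 ± 1.54% in FBS. Wild type in 2i stood apart from both other groups in these shares, lowest for Hdac1 and highest for Rbbp4. Cbx7 made up 80.6 ± 0.914% of Cbx2, Cbx7 and Cbx8 in knockout cells, 76.6 ± 2.48% in wild-type cells in 2i and 87.0 ± 0.843% in FBS. The canonical genes Pcgf2 and Bmi1 made up 42.8 ± 0.870% of the PCGF sum in knockout cells, 39.9 ± 1.13% in wild-type cells in 2i and 32.6 ± 0.731% in FBS. For both of these shares the 3 groups did not overlap.

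The share of Ezh2 in both Ezh genes was 82.9 ± 0.826% in knockout cells, 86.2 ± 1.49% in wild-type cells in 2i and 86.6 ± 3.22% in FBS. All knockout values were below those of wild type in 2i, and the media overlapped. The chromosome 6 offset, left in here, averaged -0.057 in knockout cells and 0.083 in wild-type cells in 2i. Without it the knockout difference of Ezh2 itself was -0.058 (adjusted p = 0.195). Jarid2 and Aebp2 made up 57.6 ± 2.21% of the 5 accessory PRC2 genes among the 46 in knockout cells. They made up 57.4 ± 2.19% in wild-type cells in 2i and 62.9 ± 1.82% in FBS. That sum leaves out Epop, a PRC2 subunit outside the 46, which averaged 142, 88.1 and 101 FPKM in the same order. The share with Epop in the sum was not computed. Without Epop only the 2i groups overlapped. Pcgf6 took 27.7 ± 1.22% of the PCGF sum in knockout cells, 27.2 ± 1.17% in wild-type cells in 2i and 32.0 ± 1.07% in FBS, and again only the 2i groups overlapped. Rnf2 made up 84.7 ± 0.888% of both ligase genes in knockout cells, 84.7 ± 1.82% in wild-type cells in 2i and 87.1 ± 0.740% in FBS. Wild type in 2i overlapped both other groups, and the knockout and FBS did not overlap. The share of Rybp in Rybp plus Yaf2 was 91.3 ± 0.296%, 90.3 ± 1.13% and 91.3 ± 1.11% in the same order, and only the 2i groups did not overlap.

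**Figure D5:**
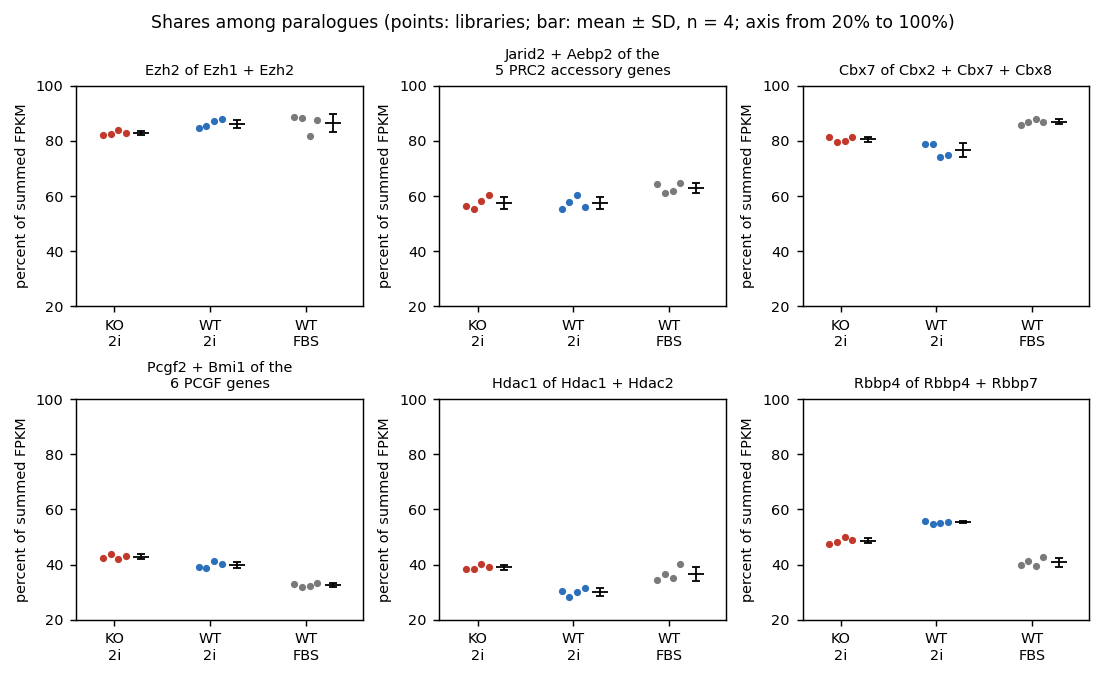
Share of a gene, or of a pair of genes, in the summed FPKM of its paralogues in percent (axis from 20% to 100%), with a point per library and the mean ± SD (n = 4) beside each group. Wild type in 2i has the lowest Hdac1 share and the highest Rbbp4 share of the 3 groups, and the Cbx7 share is highest in FBS.

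Genes that Polycomb complexes silence in ESCs were mostly near the detection filter. Of 48 such developmental regulators 23 averaged under 1 FPKM in all 3 groups and 26 did not pass the filter. A gene of this kind that passed because 1 group was high had to differ, so the counts over the other 22 describe them and are no evidence about the list. In knockout cells 14 of the 22 were higher and 3 lower, against 24.0% and 21.4% of all genes. The median difference was 0.378, against 0.012 over all genes. Under the same fibroblast marker covariate 4 were higher and 2 lower. Msx2, a homeobox target of BMP signalling, averaged 6.32 ± 0.591 FPKM in knockout cells and 1.61 ± 0.635 FPKM in wild-type cells in 2i (1.52 ± 0.15, adjusted p = 7.8e-06). Hoxc4 went the other way in the knockout, at 0.768 ± 0.157 FPKM in knockout cells, 2.08 ± 0.0999 FPKM in wild-type cells in 2i and 0.149 ± 0.0472 FPKM in FBS (-0.81 ± 0.074 and 1.42 ± 0.074). Its mean lay under the filter of 1 FPKM outside wild type in 2i, so these differences are a description only. In 2i 10 of the 22 were higher and 7 lower than in FBS, against 37.1% and 35.3% of all genes. Wnt7b averaged 0.371 ± 0.138 FPKM in 2i and 22.04 ± 5.89 FPKM in FBS (-4.05 ± 0.15), a description only, since its 2i mean lay under the filter. Tbx3, which also has a role in naive pluripotency, averaged 94.04 ± 1.49 FPKM in 2i and 17.5 ± 3.59 FPKM in FBS (2.39 ± 0.12, adjusted p = 4.43e-09). The part of the fibroblast marker level in these values was not tested further.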

How the data were processed

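Groups of the 12 libraries came from the labels. Libraries were made from Trizol-extracted RNA with an Illumina TruSeq kit, per the labels' protocols. The submitters' processing notes name CASAVA 1.8.2, Cufflinks without a version, and build mm9. No aligner is given in the sources used here. FPKM were deposited by the authors per RefSeq entry, with bounds, per the file headers. These are normalized to length and library, so no count test was used. The deposited bounds are the only precision the files give, with a median half-width of 8.01% to 9.77% of the value between 5 and 20 FPKM. In 1641 to 2188 entries per library the upper bound was smaller than the value itself, so the bounds served only for this description.

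RefSeq (GRCm38.p6) and GENCODE name tables gave a symbol to 98.8% of the 30761 entries, and 362 had none. Entries of a symbol were summed. Coordinates of the table are mm9, printed 1-based. The 23 entries with a failed estimate touched 7 genes, none of them described here, which were left out. Testing covered genes that reached 1 FPKM in 4 or more libraries, on log2(FPKM + 1) with limma 3.58.1 in R 4.3.3 (1 mean per group over all 12 libraries, eBayes with trend, two-sided, Benjamini-Hochberg). The script was tested on simulated data. Shares and promoter windows were computed in Python 3.11.15. Of 66 library pairs 0 were identical, and correlations of log2 values were 0.9811 to 0.9953 within groups and 0.8961 to 0.9735 between them.

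The 46 genes and the other lists were chosen with earlier results of these data known. Values in every library are given for up to 12 called genes without overlap per comparison, by size of difference, and for catalytic or scaffold subunits whatever their result. Other genes are given by means, and of the other lists up to 4 genes per comparison with the smallest adjusted p could be named. The alternatives were other pseudocounts (0.1 and 0.01), filters (none, 5 FPKM) and scalings, eBayes without trend and with robust estimation, only the 8 libraries compared, a block on the replicate number, the highest entry per symbol, removal of the chromosome 6 offset, the mean log2 level of 20 fibroblast markers in the model, and leaving out each library. No mm9 genome was used, and protein sequences were not used here. Values of a few genes in the other lists are left out.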

Additional observations from a re-analysis of the deposited data

Results flagged for a closer look

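Single libraries stood apart from the other 3 of their group in 5 of 168 groups of 4 values examined, where chance gives about 1 in 20. FBS replicate 3 had 14.83 FPKM of Ezh1, against 9.315 to 9.707 FPKM in the other FBS libraries, and an Ezh2 share of 81.78%, against 87.53% to 88.52%. The same library had 7.278 FPKM of Pcgf1, against 6.391 to 6.486 FPKM, and 54.34 FPKM of Rybp, against 65.07 to 66.60 FPKM. Of these genes Pcgf1 and Rybp are on chromosome 6, as is Ezh2, whereas Ezh1 is on chromosome 11. This library had the lowest chromosome 6 offset of the FBS group, -0.165 log2 units. In it Rybp was low but Pcgf1 was high, and Ezh2 at 66.54 FPKM lay within the range of the other FBS libraries. The part of the offset in these values was not tested. Knockout replicate 4 had 144.5 FPKM of Ash2l, against 138.8 to 139.7 FPKM in the other knockout libraries.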

How the results depend on the processing

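Between the knockout and wild type in 2i, adding the mean log2 level of fibroblast markers moved the calls most: 1828 genes were called, and 2 of the 46 were higher and 3 lower. Over the 14 alternatives other than leaving out a library, 1828 to 6542 genes were called, with 2 to 18 of the 46 higher and 3 to 7 lower. Leaving out each library gave 4710 to 5922 genes, 14 to 20 higher and 5 to 7 lower. For 2i against FBS the ranges were 6453 to 11158 genes, 14 to 15 higher and 17 to 21 lower, and on leaving out each library 8506 to 8966 genes, 15 to 16 higher and 19 to 21 lower. Of the 22 genes called in the knockout 4 kept their call under every alternative in which they were tested (25 or 26), as did 31 of the 36 called between media. Of those not called, 16 of 24 and 7 of 10 stayed so. Same-numbered libraries deviated together weakly (r = 0.055, 0.194, 0.216 and 0.258 for the first pair of groups, and 0.027 to 0.186 between media), 3 of 4 and 2 of 4 libraries were most like their own number, and the numbers were not taken to pair them. With the replicate number as a block 5567 genes were called with 17 and 6 of the 46 higher and lower in the knockout, and 8899 genes with 15 and 21 for 2i against FBS, and Phf1 gained a call in the knockout (adjusted p = 0.0451). Scaling by quantiles gave 78.3% of the calls among the 46 as higher in the knockout and TPM 77.3%, against 72.7%. Read depth is unknown, so low genes such as Phf19 in 2i and Cbx8 in FBS have no counting error here.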
